A study of Mus musculus with 4 samples.

Results

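Chromatin accessibility at the Hox genes was examined in LβT2b cells, so named in the titles and listed as LbT2 among the cell lines, an established mouse line modelled on the gonadotrope of the pituitary gland, by ATAC-seq, which tags accessible DNA with a transposase. The Hox peaks were those that the authors' annotation named for a gene of the Hoxa, Hoxb, Hoxc or Hoxd cluster, and 109 of the 417506 deposited peaks met this rule. Cells were held in serum-free medium overnight and then given vehicle or 1 nM activin A, a ligand of the TGF-beta family, for 6 h, with 2 libraries per treatment. All 4 libraries came from the same line with no genetic change named in the labels, and the labels do not say whether libraries of a treatment came from separate cultures, so a p-value measures only the spread between these libraries, which may be technical.

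The Hox genes encode homeodomain transcription factors that give cells of the embryo their position along the body axis. Within a cluster the genes lie in the order in which they are used, from paralog group 1, expressed toward the head, to group 13, expressed toward the tail. In cells that do not use them the clusters are known to be held silent by Polycomb complexes, while Trithorax complexes keep them active elsewhere, and TALE homeodomain proteins such as PBX and MEIS bind DNA together with HOX proteins. The pituitary forms from head ectoderm in front of the Hox expression domains.

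Depth ran from 172146474 to 224226184 high-quality autosomal reads per library, and the lists from 70692 to 178358 peaks. Vehicle library 2 stood apart with 178358 peaks, against 83344 in vehicle library 1, 85112 in activin library 1 and 70692 in activin library 2. The enrichment of reads at start sites, as reported by the authors' quality tool, was 2.72 and 2.48 under vehicle and 3.12 and 3.04 under activin, so the groups did not overlap. Of 10 gonadotrope markers, 9 had a start-site peak, as defined below, in each of the 4 libraries, beside 40.6% of protein-coding genes. Fshb, the gene for the follicle-stimulating hormone beta subunit, had none. Of 8 markers of other pituitary lineages, 0 had one in all 4. Of 6 markers of other cells of the gland, 1 did, Cdh5, and Col1a1 had one in 3 libraries.

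The Hox peaks were weak, and 2 regions were shared by all 4 libraries. Vehicle libraries 1 and 2 held 26 and 46 of them, and activin libraries 1 and 2 held 23 and 14. Per 10000 peaks of the same library these numbers were 3.12, 2.58, 2.70 and 1.98. The peaks carried 29 of the 39 Hox genes as names. Merged across libraries where they overlapped, they made 78 regions, of which 56 were called in 1 library, 16 in 2, 4 in 3 and 2 in all 4. These were 71.8%, 20.5%, 5.13% and 2.56% of the regions, beside 67.4%, 14.7%, 6.26% and 11.7% of the 255101 merged regions of the genome. Whatever gene they were named for, called peaks per 100 kb had a mean over the 4 libraries of 4.74 in Hoxa to 10.3 in Hoxd. Over the autosomes the single libraries had 3.34 and 7.19 under vehicle and 3.40 and 2.83 under activin. Hoxd, of 96.9 kb, held 14 and 17 peaks under vehicle and 5 and 4 under activin, above the autosomes in each library. Hoxb, of 174 kb, held 8 and 21 against 5 and 4, with both activin libraries below the autosomes per length. Hoxc, of 116 kb, held 12 and 11 against 4 and 1, and activin library 2 was below the autosomes.

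Promoter sequence is shown first, because the windows rich in CpG dinucleotides are those that most often carried a peak elsewhere in the genome. RefSeq promoter entries of GRCm38.p6 matched 22 of the 39 Hox genes, with 24 entries. Nearly all were Hoxa and Hoxd genes, with Hoxb1, Hoxb4 and Hoxb8 alone from Hoxb and Hoxc4 alone from Hoxc. The 8 windows with at least 20 CpG in the 250 bases before the start site are printed 5′ to 3′ on the gene's strand, with every CG in capitals. CG reads the same on both strands and does not overlap itself. Of all 32851 RefSeq windows, 17.9% held at least 20 CpG and 92.1% held at least 1. The first 4 belong to genes whose window, taken from 250 bases before to 50 after the start, was overlapped by a peak in 1 to 3 libraries.
Hoxa13 (chr6:52260881-52261130, minus strand, 35 CpG): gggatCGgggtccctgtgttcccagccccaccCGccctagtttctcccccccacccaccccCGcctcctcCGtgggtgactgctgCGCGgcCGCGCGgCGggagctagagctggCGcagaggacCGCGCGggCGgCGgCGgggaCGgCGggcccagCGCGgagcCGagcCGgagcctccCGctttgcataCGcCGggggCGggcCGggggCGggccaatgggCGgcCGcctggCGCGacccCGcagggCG
Hoxd13 (chr2:74667975-74668224, plus strand, 31 CpG): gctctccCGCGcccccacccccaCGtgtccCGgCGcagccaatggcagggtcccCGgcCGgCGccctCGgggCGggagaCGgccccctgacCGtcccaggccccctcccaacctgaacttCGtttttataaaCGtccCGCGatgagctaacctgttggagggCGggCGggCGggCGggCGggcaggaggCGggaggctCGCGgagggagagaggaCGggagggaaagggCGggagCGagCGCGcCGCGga
Hoxd1 (chr2:74762730-74762979, plus strand, 24 CpG): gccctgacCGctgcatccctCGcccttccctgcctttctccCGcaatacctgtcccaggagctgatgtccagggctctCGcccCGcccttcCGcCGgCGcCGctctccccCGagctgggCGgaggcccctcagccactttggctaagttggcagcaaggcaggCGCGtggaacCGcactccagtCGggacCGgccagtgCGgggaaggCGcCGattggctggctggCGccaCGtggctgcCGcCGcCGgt
Hoxd10 (chr2:74691641-74691890, plus strand, 20 CpG): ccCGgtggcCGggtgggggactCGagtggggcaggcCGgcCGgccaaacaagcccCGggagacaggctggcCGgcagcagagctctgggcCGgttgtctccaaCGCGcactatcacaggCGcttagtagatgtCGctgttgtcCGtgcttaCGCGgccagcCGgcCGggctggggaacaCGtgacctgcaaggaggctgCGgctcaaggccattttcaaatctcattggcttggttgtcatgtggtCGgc
The other 4 held 20 to 28 CpG, and no peak overlapped their windows in any library.
Hoxa5 (chr6:52204588-52204837, minus strand, 28 CpG): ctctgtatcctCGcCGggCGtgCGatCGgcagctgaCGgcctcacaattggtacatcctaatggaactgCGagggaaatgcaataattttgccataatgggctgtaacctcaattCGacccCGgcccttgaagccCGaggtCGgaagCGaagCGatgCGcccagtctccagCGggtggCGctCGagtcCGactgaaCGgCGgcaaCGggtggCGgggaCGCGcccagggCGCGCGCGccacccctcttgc
Hoxa6 (chr6:52208673-52208922, minus strand, 24 CpG): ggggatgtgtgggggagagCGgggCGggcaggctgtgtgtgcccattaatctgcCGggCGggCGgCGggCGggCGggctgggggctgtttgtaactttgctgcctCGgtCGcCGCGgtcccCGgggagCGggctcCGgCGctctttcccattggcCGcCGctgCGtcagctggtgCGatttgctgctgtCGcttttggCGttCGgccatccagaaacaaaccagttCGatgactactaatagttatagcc
Hoxa10 (chr6:52234940-52235189, minus strand, 20 CpG): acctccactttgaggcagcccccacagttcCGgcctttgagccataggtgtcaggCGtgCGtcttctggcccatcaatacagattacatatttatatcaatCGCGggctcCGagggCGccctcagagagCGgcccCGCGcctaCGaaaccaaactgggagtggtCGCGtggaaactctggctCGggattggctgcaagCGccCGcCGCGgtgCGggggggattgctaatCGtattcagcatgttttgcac
Hoxd11 (chr2:74682073-74682322, plus strand, 20 CpG): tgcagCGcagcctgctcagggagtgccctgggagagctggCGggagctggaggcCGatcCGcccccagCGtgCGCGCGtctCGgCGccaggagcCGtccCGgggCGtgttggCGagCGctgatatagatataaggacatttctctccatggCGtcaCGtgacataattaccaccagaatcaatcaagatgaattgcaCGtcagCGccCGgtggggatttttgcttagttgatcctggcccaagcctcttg

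Among all RefSeq windows with at least 20 CpG, 85.6% were overlapped by a peak in all 4 libraries and 7.84% in none. Among the 8 Hox windows printed above, 0 were overlapped in all 4 and 4 in none. Peak strength is given as the authors' −log10 q, the significance of the peak over the caller's background corrected for multiple testing, which is higher for stronger peaks and has a lower limit of 1 in the lists. Hoxd10, whose product patterns the posterior axis and limbs, was overlapped in 3 libraries, with −log10 q of 1.62 and 1.41 under vehicle and 1.31 in activin library 2. The windows of Hoxa13 and Hoxd13, with 35 and 31 CpG, were overlapped in 2 libraries and in 1. Over all 24 Hox windows the median was 12.5 CpG, with a range of 2 to 35, beside a median of 6 over all windows. Counted by gene, 0 of 22 Hox genes had a window overlapped in all 4 libraries, beside 37.1% of 27025 RefSeq genes. The 12 Hox windows with 13 or more CpG gave 0 in all 4, whereas 82.0% of the 10362 RefSeq windows at or above that number were overlapped in all 4. These windows are a count of letters and of overlaps; methylation and histone marks were not measured.

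**Figure D1:**
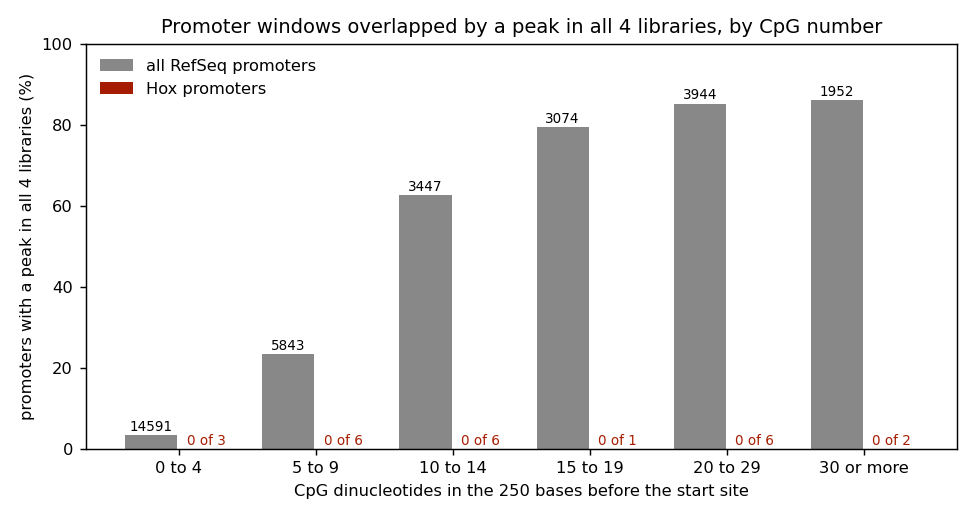
Share of RefSeq promoter windows overlapped by a called peak in all 4 libraries (vertical axis, %), by the number of CpG in the 250 bases before the start site (horizontal axis), with the number of windows above each bar. For all promoters (grey) the share was 3.41% at 0 to 4 CpG and 86.1% at 30 or more. For the Hox promoters with an entry (red), mostly of Hoxa and Hoxd, it was 0 in each class, with 1 to 6 windows per class.

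A Hox gene was taken to have a start-site peak in a library when a peak named for it was centred within 1 kb of the start site used by the annotation, or when any peak was annotated as its promoter. Of the 39 genes, 1 had such a peak in all 4 libraries, 4 in 3 libraries, 11 in 2, 8 in 1 and 15 in none. By the same definition 40.6% of 21887 RefSeq protein-coding genes had one in all 4 libraries, and 39.3% had none. At a −log10 q of 5 or more in all 4 libraries, the numbers were 28.1% of the protein-coding genes and 0 of the 39 Hox genes.

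The gene with a start-site peak in every library was Hoxd13, which specifies digits and the distal limb. Its strongest start-site peaks had a −log10 q of 1.44 and 1.95 under vehicle and 1.76 and 1.07 under activin. The groups overlapped, and each value was close to the lower limit of 1 in the lists. The genes with a start-site peak in 3 libraries were Hoxa7, Hoxd1, Hoxd10 and Hoxd12. Hoxd12, a neighbour of Hoxd13, had values of 1.52 and 1.35 under vehicle and 1.87 in activin library 1. Its peak in vehicle library 2 did not overlap those of the other libraries. Hoxd1, at the other end of its cluster, had 1.74 in vehicle library 2 and 1.65 and 1.32 under activin.

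Within the Hoxa cluster the start-site peaks with the highest mean −log10 q included those of Hoxa7 and Hoxa13. Hoxa7, a trunk-patterning gene, had 2.21 and 2.52 under vehicle and 2.21 in activin library 2. In activin library 1 a peak lay in the same place with a −log10 q of 3.54, but it was annotated as exon 1 and did not meet the definition. All 4 Hoxa7 peaks were centred 1.36 to 1.47 kb from the start used, so those of the other libraries met it by promoter annotation alone. The RefSeq window of Hoxa7, chr6:52218524-52218823, was overlapped by a peak in 0 libraries. Hoxa13, which acts in the hindgut and the urogenital tract, had start-site peaks under activin alone, at 2.44 and 1.5. No start-site peak was called for Hoxa2, Hoxa3, Hoxa4, Hoxa5, Hoxa6, Hoxa9 or Hoxa11, and Hoxa10 had one in activin library 1.

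Within the Hoxb cluster the highest means were at Hoxb8, Hoxb13 and Hoxb1. Hoxb8 had 1.69 and 1.56 under vehicle and none under activin. Hoxb13, known from the prostate and the tail bud, had none under vehicle and 1.19 and 1.37 under activin. Hoxb1, a marker of hindbrain rhombomere identity, had 2.55 in vehicle library 2 alone, and Hoxb2, Hoxb3 and Hoxb9 each had a start-site peak in 1 library. Hoxb4, Hoxb5, Hoxb6 and Hoxb7 had none, although the Hox peak with the highest −log10 q, 3.80 in vehicle library 2, lay in exon 1 of Hoxb7, 1.68 kb from the start site used.

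Within the Hoxc cluster, Hoxc4, Hoxc11 and Hoxc9 had the highest means. Their values in vehicle libraries 1 and 2 were 1.72 and 1.59 for Hoxc4, 1.99 and 1.17 for Hoxc11, and 1.25 and 1.86 for Hoxc9. The Hoxc4 values came from different places, 15246 and 718 bases from the start used, and at the nearer place vehicle library 1 had 1.17. The Hoxc9 peaks of the vehicle libraries did not overlap. None of the 3 genes had a start-site peak in an activin library. Hoxc13, whose product acts in hair and nails, had 1.53 and 1.51 under vehicle and likewise none under activin. Hoxc12 had a start-site peak in vehicle library 2 and activin library 1, Hoxc8 in vehicle library 1 and Hoxc10 in activin library 2. Hoxc5 and Hoxc6 had none. In the Hoxd cluster, Hoxd3 and Hoxd8 had start-site peaks in the vehicle libraries alone, Hoxd11 had one in vehicle library 1, and Hoxd4 and Hoxd9 had none.

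**Figure D2:**
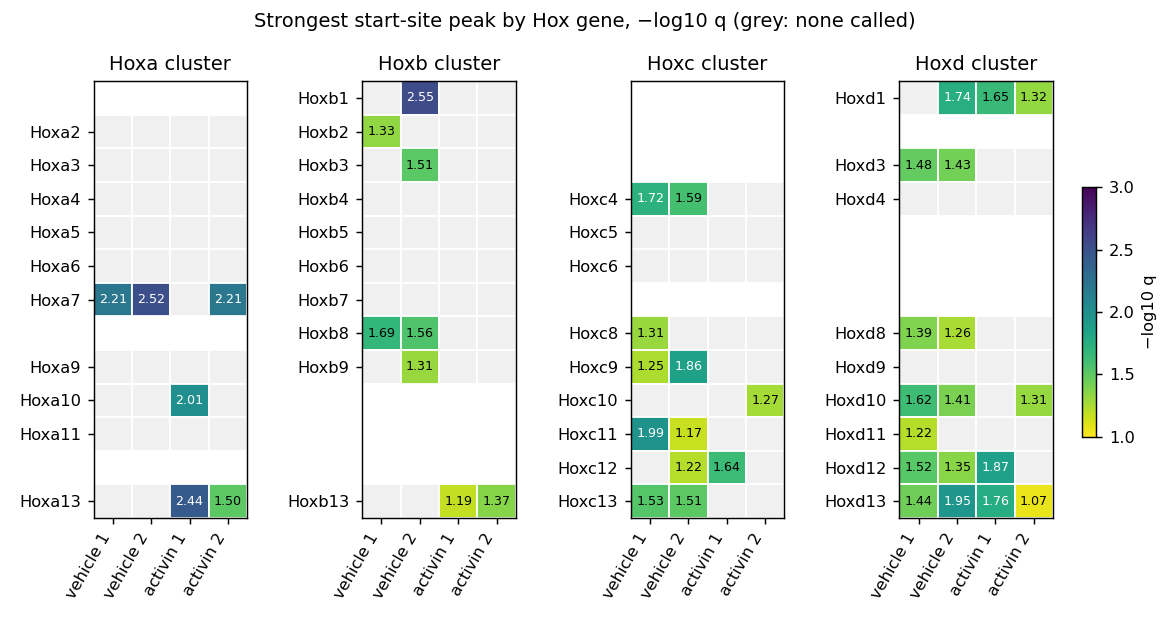
The −log10 q of the strongest start-site peak of the Hox genes described here (rows, by paralog group) in each library (columns), for the 4 clusters; grey cells had no start-site peak and white gaps are paralogs that the cluster lacks or that are not shown. Hoxd13 is filled in all 4 libraries, and the Hoxa7 cell of activin library 1 is empty because the peak there, at 3.54, was annotated as an exon.

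Along the clusters the pooled shares differed by position, but not in the same order in each library. Counting each gene in each library, start-site peaks were called in 12 of 48 cases for paralog groups 1 to 4 (25.0%), in 8 of 44 for groups 5 to 8 (18.2%) and in 26 of 64 for groups 9 to 13 (40.6%). Group 13, the tail end, had 10 of 16, with a peak in at least 2 libraries for each of Hoxa13, Hoxb13, Hoxc13 and Hoxd13. Group 12 had 5 of 8, group 1, the head end, 6 of 12, group 9 had 3 of 16, and groups 5 and 6 had 0 of 12 each. In vehicle library 2 groups 1 to 4 and 9 to 13 were level at 50%, and in vehicle library 1 groups 5 to 8, at 36.4%, were above groups 1 to 4, at 25%. Over all RefSeq protein-coding genes the share of such cases was 49.5%. These cases share libraries and neighbouring genes, and no test was made of the order.

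By cluster, a start-site peak was called in 18 of 36 cases for Hoxd (50%), 12 of 36 for Hoxc (33.3%), 8 of 40 for Hoxb (20.0%) and 8 of 44 for Hoxa (18.2%). The number of Hox genes with a start-site peak was 14 and 17 under vehicle and 8 and 7 under activin, so the groups did not overlap. The means were 15.5 ± 2.12 (SD, n = 2) and 7.5 ± 0.707 (SD, n = 2), a difference of −8.00. In an exact 2-sided permutation test p was 0.333, the smallest that 2 against 2 libraries allow. Over all protein-coding genes the shares were 48.1% and 54.4% under vehicle and 48.6% and 46.8% under activin, and these overlapped. The comparison by treatment was chosen after the values were seen.

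The difference was made up by Hoxc, with 5 and 5 genes against 1 and 1, by Hoxd, with 6 and 6 against 3 and 3, and by Hoxb, with 2 and 4 against 1 and 1. Hoxa went the other way, with 1 and 2 genes against 3 and 2. When each list was shortened to the same number of strongest peaks, the numbers of genes were 13 and 6 under vehicle and 7 and 7 under activin, and the groups overlapped (exact permutation p = 1). At a −log10 q of at least 2 they were 1 and 3 against 2 and 1. Between the treatments, the start-site enrichment of the libraries ran opposite to the count over the full lists, being lower under vehicle. Its part in the result was not tested.

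In strength, the Hox peaks lay low in each list. Their median −log10 q was 1.35 and 1.40 under vehicle and 1.64 and 1.34 under activin, beside medians of 1.61, 1.49, 1.88 and 1.85 over all peaks of the same libraries. The highest Hox value in each library was 2.21 (Hoxa7), 3.80 (Hoxb7), 3.54 (Hoxa7) and 2.21 (Hoxa7). No Hox peak reached a −log10 q of 5, while 14.9%, 7.15%, 23.3% and 22.4% of all peaks did. At least 2 was reached by 1 and 8 Hox peaks under vehicle (3.85% and 17.4%) and by 5 and 1 under activin (21.7% and 7.14%). Over all peaks these shares were 34.4% and 23.2% under vehicle and 46.4% and 45.6% under activin.

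The distance from other promoters was wider. Promoter-annotated peaks of the genome had a median −log10 q of 7.63 and 4.38 under vehicle and 13 and 10.7 under activin. Those of Hox genes, 9, 8, 6 and 4 peaks, had medians of 1.33, 1.80, 1.69 and 1.41. In read density, high-quality reads per kb of peak per 1000000 high-quality reads, Hox peaks had medians of 1.89, 1.55, 1.69 and 1.49 in the same order, beside 1.47, 1.28, 1.42 and 1.51 for all peaks. For promoter-annotated peaks the densities were 2.76, 2.15, 3.01 and 3.04 over the genome and 1.96, 1.55, 1.90 and 1.80 for Hox genes. The Hox medians were above those of all peaks in 3 of 4 libraries, and the Hox promoter medians were below those of all promoters in 4 of 4.

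By annotation, 27 of the 109 Hox peaks were promoter peaks (24.8%), 26 were exonic (23.9%), 19 intronic, 3 at transcript ends and 34 intergenic. Over all peaks the promoter share was 10.9% and the exon share 5.21%. The intronic, transcript-end and intergenic shares were 17.4%, 2.75% and 31.2% of the Hox peaks, beside 35.9%, 3.28% and 44.7% of all peaks. The annotation names a peak for the nearest start site, and 33 Hox peaks lay outside the intervals from the first to the last Hox gene. Of these, 22 were named for Hoxc13 and lay 10.6 to 98.7 kb from its start, on the side away from the cluster, and 9 were named for Hoxd1, at 7.72 to 27.7 kb. Their −log10 q ran from 1.04 to 2.39 for Hoxc13 and from 1.24 to 2.68 for Hoxd1.

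Inside the intervals there were 76 Hox peaks, 22 and 31 under vehicle and 15 and 8 under activin; outside there were 4 and 15 under vehicle and 8 and 6 under activin. As raw counts the groups were apart inside the clusters and overlapped outside them. The whole lists held 83344 and 178358 peaks under vehicle and 85112 and 70692 under activin. The counts inside and outside were not scaled to these lengths. In total the vehicle libraries had a mean of 36.0 ± 14.1 Hox peaks (SD, n = 2) and the activin libraries 18.5 ± 6.36 (SD, n = 2), a difference of −17.5 with an exact 2-sided permutation p of 0.333. It was −7.5 without vehicle library 2 and −27.5 without vehicle library 1. Relative to the length of each list the difference was −0.51 per 10000 peaks (exact permutation p = 0.667), and the groups overlapped.

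**Figure D3:**
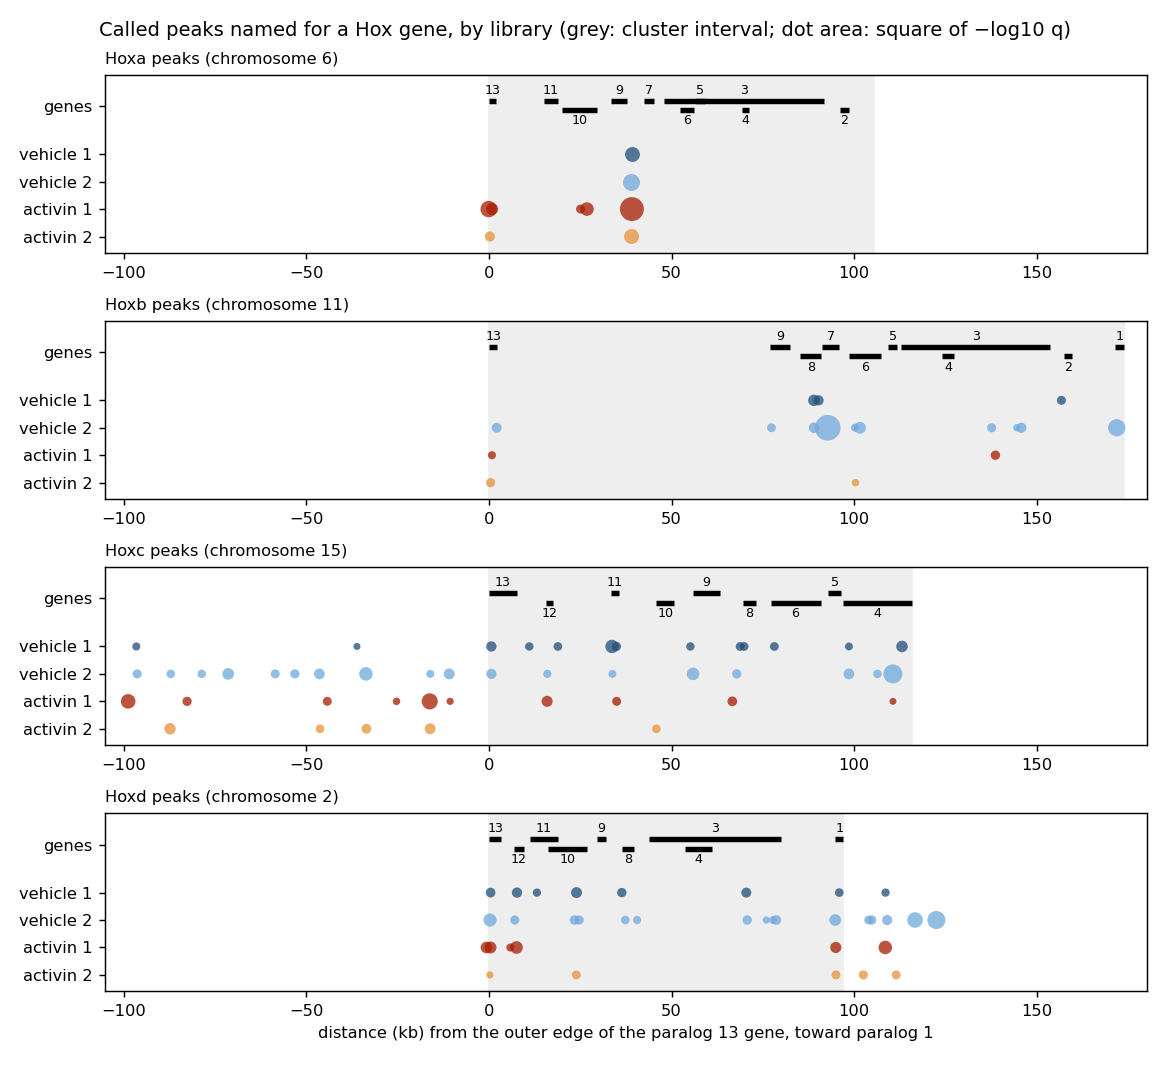
Peaks of the Hox genes described here, by library (rows) along each cluster, drawn from the outer edge of the group 13 gene toward group 1 (horizontal axis, kb), with the genes as black bars carrying their paralog number; dot area follows the square of the −log10 q. Peaks inside a cluster that carry another gene's name are not drawn; the column of dots in all 4 libraries of Hoxa is the Hoxa7 region, and 22 dots lie left of the Hoxc cluster.

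The clusters were next compared by how much of each lay in called peaks, whatever gene the peak was named for. In GRCm38 the intervals were chr6:52155367-52260880 for Hoxa with 11 genes, chr11:96194316-96368254 for Hoxb with 10, chr15:102921131-103036856 for Hoxc with 9 and chr2:74668225-74765142 for Hoxd with 9. Hoxd was covered over 6.65% and 6.76% of its bases under vehicle and 2.07% and 1.63% under activin. Hoxc was covered over 3.43% and 5.02% under vehicle, and 1.13% and 0.145% under activin. In both clusters the vehicle libraries lay above the activin libraries. The autosomes as a whole were covered over 1.53% and 3.23% under vehicle and 1.72% and 1.39% under activin.

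Hoxb had 1.16% and 4.37% under vehicle against 1.03% and 0.910%, and Hoxa had 0.957% and 4.2% against 1.34% and 1.26%. The Hoxa values overlapped between the groups, and those of Hoxb did not. Means over the 4 libraries were 4.28% ± 2.81 for Hoxd, 2.43% ± 2.21 for Hoxc, 1.94% ± 1.52 for Hoxa and 1.87% ± 1.67 for Hoxb (SD, n = 4). Without vehicle library 2, which had the longest list, they were 3.45%, 1.57%, 1.19% and 1.03%. Hoxd was above each of the other clusters in 4 of 4 libraries. In exact sign-flip permutation tests over the libraries p was 0.125 for each of these 3 pairs, the smallest that 4 libraries allow, and 0.25 after Benjamini-Hochberg adjustment over the 6 pairs of clusters. Hoxa, Hoxb and Hoxc kept no constant order among themselves (adjusted p = 0.75 for each pair, exact sign-flip test).

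**Figure D4:**
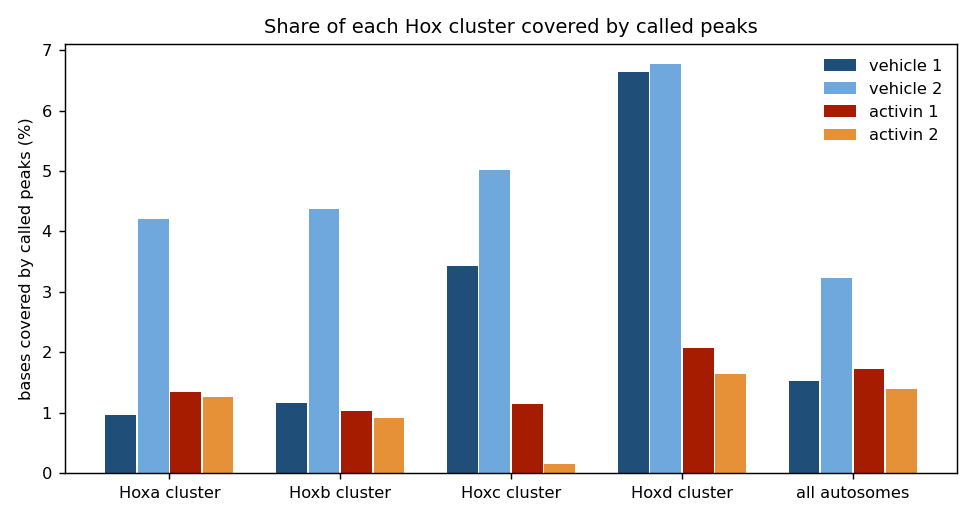
Share of the bases of each Hox cluster, and of all autosomes, that lay in called peaks (vertical axis, %), with 1 bar per library. The Hoxd bars are the highest of the 4 clusters in each library, at 6.65% and 6.76% under vehicle and 2.07% and 1.63% under activin.

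Reads in those peaks followed the covered length. Per 1000000 high-quality reads, the called peaks of Hoxd held 11.6 and 11.6 reads under vehicle and 4.46 and 3.28 under activin, a difference of −7.75. For Hoxc they held 6.44 and 7.14 against 1.97 and 0.388, a difference of −5.61. Hoxb had 3.36 and 10.8 against 2.56 and 2.19, a difference of −4.70 that was −0.98 without vehicle library 2 and −8.41 without vehicle library 1. For each of these 3 clusters the exact 2-sided permutation p was 0.333, the smallest possible here. Hoxa had 1.33 and 3.88 against 2.54 and 1.77 (exact permutation p = 1), and the groups overlapped.

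The mean density within the called peaks was 1.79 under vehicle and 2.15 under activin for Hoxd, 1.42 and 1.90 for Hoxc, and 1.54 and 1.39 for Hoxb. The Hoxc densities overlapped between the groups, and the highest, 2.31 in activin library 2, came from a single peak of 168 bases. The activin lists had fewer peaks called in the Hoxd and Hoxc clusters, and reads outside called peaks were not counted in the deposited reports. With each list shortened to the same number of strongest peaks, Hoxd was covered over 6.11% and 2.66% under vehicle against 1.92% and 1.63% under activin, and Hoxc over 2.80% and 1.03% against 0.496% and 0.145%. The order of the groups was kept in both clusters, and the differences in reads were −3.79 for Hoxd and −2.73 for Hoxc (exact permutation p = 0.333 for each). Hoxb was covered over 0.853% and 0.957% under vehicle against 0.711% and 0.910% under activin, and these shares overlapped. Its reads stayed apart, with a difference of −0.92 (exact permutation p = 0.333). At a −log10 q of at least 2 the order was lost in Hoxd and Hoxc. Hoxd was then covered over 0.275% and 1.53% under vehicle against 0.429% and 0.358%, and Hoxc over 0.524% in vehicle library 2 alone, with differences in reads of −0.31 and −0.39 (exact permutation p = 1 for each).

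The regions called in all 4 libraries were compared between treatments by read density. Among the 13871 autosomal regions with exactly 1 peak per library and a common part of at least 50% of the union, 0 were Hox regions, so no Hox region entered that test; limma called 0% of those regions at an adjusted p under 0.05, while 9.53% fell under an unadjusted p of 0.05. Over all 28977 merged regions with a peak in each library, which held 2 Hox regions, limma likewise called 0%, and 9.40% fell under an unadjusted p of 0.05.

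The Hoxa7 region, chr6:52221528-52222140, was annotated as promoter in 3 libraries and exon 1 in the other. It held 81 and 158 high-quality reads under vehicle and 169 and 128 under activin, in peaks of 221, 550, 445 and 555 bases. The densities were 2.13 and 1.3 under vehicle and 1.69 and 1.3 under activin, and the groups overlapped. The log2 difference, activin minus vehicle, of median-centred reads per kb was −0.34 (SE 0.26, limma adjusted p = 0.671). Without division by the peak length it was 0.014.

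The Hoxd13 region, chr2:74668252-74668940, lay in exon 1 in each library. Among regions named for a Hox gene, it was the one outside promoters called in all 4 libraries. It held 171 and 220 reads under vehicle and 220 and 89 under activin, at densities of 1.87 and 1.80, and 1.77 and 1.80. The 4 densities ran from 1.77 to 1.87, with the vehicle values just above the activin values. The log2 difference was −0.20 (SE 0.17, limma adjusted p = 0.709), and −0.83 without division by length (limma adjusted p = 0.480). The parts common to all 4 peaks covered 36.1% of the Hoxa7 region and 29.8% of the Hoxd13 region. Under other genes' names, an intronic region in Hoxa (Gm28308) and an exonic region in Hoxb (Hoxb3os) were also called in all 4 libraries. The first had a −log10 q of 1.26 and 2.37 under vehicle and 3.35 and 1.76 under activin. Its densities were 1.20 and 0.795 against 1.76 and 2.04, and these did not overlap. The log2 difference was 0.80 (SE 0.24, limma adjusted p = 0.521), and −1.15 without division by length (limma adjusted p = 0.465). The common part covered 8.88% of that region. The second had a −log10 q of 1.05 and 1.51 against 1.39 and 1.42, with no base common to all 4 peaks.

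Regions called in both libraries of a treatment and in neither of the other numbered 5 for vehicle (6.41% of the 78 Hox regions, beside 4.86% of all merged regions) and 2 for activin (2.56%, beside 1.35%). Of the vehicle regions, the strongest by the lower of their values was exonic at Hoxb8, chr11:96283154-96283409, with a −log10 q of 1.69 and 1.56. The next were exonic at Hoxc13, chr15:102921410-102922183, with 1.53 and 1.51, and intergenic, with centres at −96488 and −96252 bases from the Hoxc13 start, with 1.20 and 1.35. The others were named for Hoxc11 and Hoxc4. The activin regions were the Hoxa13 promoter, chr6:52260265-52261028, with 2.44 and 1.5, and Hoxb13, chr11:96194276-96195250, with 1.19 and 1.37. Over all of these regions the values ran from 1.17 to 2.44. Both shares were above those of all regions, but they rested on 5 and 2 regions, and the difference was not tested.

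Within the 4 intervals, a −log10 q of 5 or more was reached at 1 place, and it did not carry a Hox gene's name. It was the promoter of Hoxd3os1, a noncoding transcript antisense to Hoxd3, at chr2:74715858-74716584. Its values were 2.86 and 4.74 under vehicle and 8.40 and 7.25 under activin, and the groups did not overlap. The log2 difference in median-centred reads per kb was 0.28 (SE 0.19, limma adjusted p = 0.638), and −0.065 without division by length. The median −log10 q of all promoter peaks, given above, was likewise higher under activin. Hoxd3 itself had its strongest start-site peaks at 1.48 and 1.43 in the vehicle libraries, at places that did not overlap. Strong peaks bordered the Hoxd cluster on either side, at 88.8 kb and at 60.4 kb in vehicle library 2, the second at the Mtx2 promoter with 19.5 and 18.9 under vehicle and 29.8 and 27.6 under activin. Of 672 autosomal windows of 100 kb that held the midpoints of at least 5 protein-coding genes, 22.2% had no peak of 5 or more in any library, as did 15.3% of the 118 windows with at least 8; 82.2% of the latter had one in all 4 libraries.

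Genes that act with or on the Hox clusters were read in the same way, beside the 40.6% of protein-coding genes with a start-site peak in all 4 libraries. Among 9 TALE cofactors, 5 had a start-site peak in all 4 libraries. Meis1, whose product binds DNA with HOX proteins, had a −log10 q of 3.45 and 5.61 under vehicle and 10.2 and 6.56 under activin, while Meis2 had values between 1.53 and 1.87 in 3 libraries.

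Among 18 Polycomb genes, 14 had a start-site peak in all 4 libraries, and Suz12, a core subunit of the complex that methylates histone H3, had 31.5 and 23.9 under vehicle and 40.6 and 36.7 under activin. Among 9 Trithorax genes 8 did, with Kmt2a, a methyltransferase that maintains Hox expression, at 19.1 and 10.0 under vehicle and 13.9 and 11.5 under activin. Of 9 regulators upstream of Hox genes, 4 did, among them Rara and Rarg, which are retinoic acid receptors, and Egr2, a hindbrain factor. The caudal factors Cdx1, Cdx2 and Cdx4 did not, nor did the ParaHox genes Gsx1 and Pdx1. The median over genes of the mean −log10 q was 0.333 for the 39 Hox genes, 8.84 for the TALE list, 9.0 for Polycomb, 13.6 for Trithorax, and 0.765 for all protein-coding genes. It was 0.693 for the upstream regulators, 0.335 for the 2 ParaHox genes and 0 for the markers of other pituitary lineages, so low medians were not particular to Hox genes. Of the shared promoter regions of these lists, 4, 7, 5 and 3 entered the limma test for TALE, Polycomb, Trithorax and upstream genes, and limma called 0 of them; 0, 2, 0 and 0 fell under an unadjusted p of 0.05, beside 8.09% of all 5697 promoter regions tested.

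**Figure D5:**
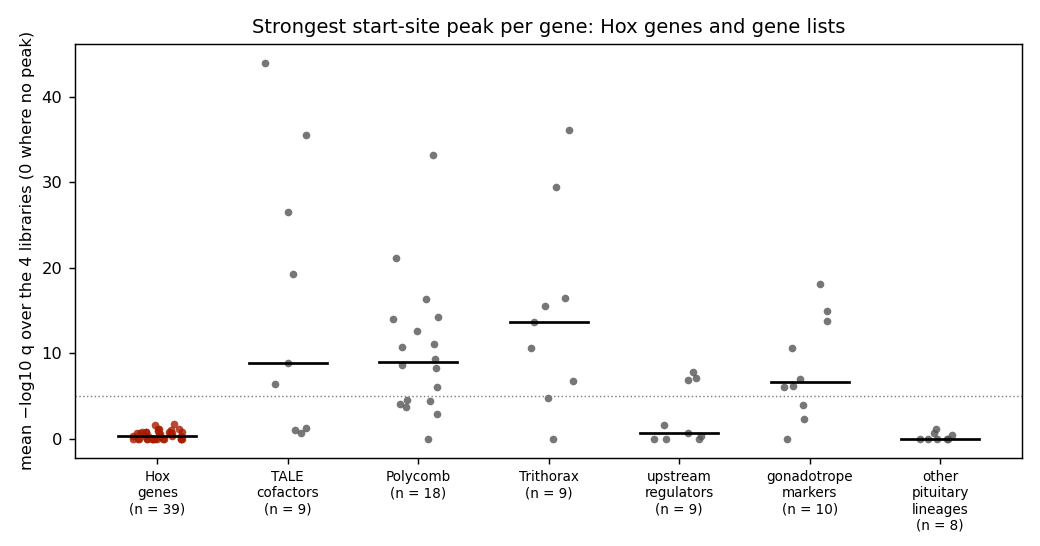
Mean over the 4 libraries of the −log10 q of the strongest start-site peak (vertical axis, 0 where no peak was called), 1 point per gene, for the 39 Hox genes and 6 gene lists; horizontal bars are medians and the dotted line marks 5. The Hox genes lie between 0 and 1.73, with a median of 0.333, while the Polycomb and Trithorax medians are 9.0 and 13.6. Upstream regulators and other pituitary lineages have medians of 0.693 and 0.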

How the data were processed

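ATAC-seq was measured in 4 libraries, grouped by their titles. Bowtie2, MACS2, HOMER and the builds GRCm38 and mm10 are named in the submitters' processing notes; peak-calling settings are not given in the sources used here. The authors deposited, for each library alone, broad peaks with a score, a fold enrichment over the caller's background, and the −log10 of the p-value and q-value. The score is a scaled whole-number copy of the −log10 q. Peaks were annotated with annotatePeaks.pl, and ataqv 1.3.1 gave the high-quality reads in each autosomal peak, per the file headers. A peak called per library depends on its depth and background.

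Hox peaks, start sites, covered shares and promoter windows were computed in Python 3.11.15 and pandas 2.3.3. Peaks were merged where they overlapped by at least 1 bp. Regions were tested with limma 3.58.1 in R 4.3.3 on log2((reads + 1)/kb) of each library's own peak, centred on the library's median, with Benjamini-Hochberg adjustment at 0.05 over all regions; a fold on this scale understates changes of regions with few reads. No Hox region met the planned definition of a shared region. Values of 2 Hox regions, of Hoxd3os1 and of the Gm28308 region therefore come from the alternative over all merged regions. Single values were compared by exact permutation. The limma fit was checked on simulated data. Of 41 promoter-annotated peaks inside the clusters, 5 carried a gene ID that no list pairs with a symbol.

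All 39 RefSeq Hox genes are accounted for by count. Values per library are given for up to 3 genes per cluster with the highest mean −log10 q at the start site, for regions called in all 4 libraries, and for the 3 strongest regions restricted to a treatment; Hoxb7, Hoxc13 and Hoxd10 were added after their values were seen. The members and gene lists were chosen with earlier results of these data known. Values of some single genes are not reported here. Alternatives covered the pseudocount, scaling, length, filters, peak thresholds, equal list lengths, the replicate block and each library left out.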

Additional observations from a re-analysis of the deposited data

How the results depend on the processing

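At a −log10 q of 5 or more, the difference in Hox peaks was 0, the count of Hox genes with a start-site peak in all 4 libraries was 0, the covered shares were 0% for Hoxa, Hoxb and Hoxc and 0.197% for Hoxd, and the differences in reads per 1000000 were 0 for Hoxa, Hoxb and Hoxc and 1.28 for Hoxd, a reversed sign that came from the Hoxd3os1 peaks, the one place at that strength. With at least 2, the covered shares were 0.123% for Hoxb, 0.131% for Hoxc and 0.647% for Hoxd, the count of genes was 0 and the Hoxa difference in reads was 0.122. The count of genes was also 0 by promoter annotation alone and by overlap with RefSeq windows, and 1 to 3 with a library left out: Hoxd1 joined without vehicle library 1, Hoxd12 without activin library 2, and Hoxd10 and Hoxa7 without activin library 1. The Hoxa difference in reads was 0.616 with equal numbers of peaks and −1.72 to 0.826 with a library left out, turning sign without vehicle library 2; the cause was not tested. The other 3 clusters kept the negative sign with each library left out. The difference in Hox peaks was −27.5 to −7.50 with a library left out, the smallest without vehicle library 2, and −2.50 with equal numbers of peaks; that in start-site genes was −9.50 to −6.50 and −2.50.

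Without division by length, the log2 difference was 0.014 for the Hoxa7 region and −0.065 for Hoxd3os1. No setting called a Hox region: over all merged regions the Hoxa7 and Hoxd13 regions were tested, and neither passed under any setting run there, while the definition of shared regions held 0 Hox regions under each of its settings. Over the genome the count of called shared regions, 0, was 1 with a pseudocount of 10, 605 when scaled to all high-quality reads (553 higher, 52 lower under activin; that scaling moved the median by 0.27), 39 without division by length, and 0 to 9 with a library left out. With the replicate number as a block it was 4, with 0 Hox regions. The labels do not say whether libraries with the same number share more than that number. Their deviations had r = −0.03 across regions, a single correlation that cannot show what the libraries shared. The equal-number comparison of reads was added after seeing the data, as were the settings for single regions and for genes per library. With 2 libraries per treatment no permutation p can pass 0.05. Counts of 40 to 386 reads per Hox peak limit the precision.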
